A study of Mus musculus with 4 samples.

Results

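Nuclear factor kappa B (NF-kappaB) genes were examined as binding sites of activated STAT3 in mouse oligodendrocyte progenitor cells. The 9 genes are the subunits Rela, Nfkb1, Nfkb2, Relb and Rel, the IkB-like cofactors Bcl3 and Nfkbiz, and the inhibitors Nfkbia and Tnfaip3. They were chosen as a pathway by name, with earlier results of these data known, and each was looked up in the authors' table of reproducible binding regions, which names a gene where a region lies within 25 kb of one of its transcripts or nearest to it. Of the 9 genes, 8 were named there, with 15 regions of the 12925 in the table. Rel had none.

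NF-kappaB is a family of dimeric transcription factors held in the cytoplasm by IkB proteins. Receptors of tumour necrosis factor, interleukin 1 and microbial products activate the IkB kinase complex, which marks IkB for degradation and frees the dimers to enter the nucleus. Among the genes they switch on are those of their own inhibitors, which ends the response. Bcl3 and the product of Nfkbiz resemble IkB but act in the nucleus, where they modify the activity of bound dimers. STAT3, phosphorylated on tyrosine downstream of the receptor gp130, is another cytokine-driven factor, and in other tissues the pathways share target genes.

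The cells were primary cortical progenitors of C57BL/6 mice, which give rise to the myelin-forming oligodendrocytes, kept in Sato medium containing PDGF-AA at 10 ng/ml together with bFGF at 20 ng/ml. All samples received CNTF, a cytokine that signals through gp130, at 100 ng/ml for 15 min. An antibody against STAT3 phosphorylated on tyrosine (pSTAT3) was used for 2 ChIP-seq libraries, and 2 input libraries carried no antibody. Input values were not analysed here, and there was no group without CNTF, so the comparisons are between genes and between replicates. Lysed cells were pooled, and no label says that the libraries came from separate cultures, so their spread may be technical. Replicate 1 had 42189 peaks with a median pileup of 30 stacked fragments, and replicate 2 had 26649 peaks with a median of 20, while the lowest local background was 4.72 and 2.91 fragments. Binding does not measure expression, so the cell type could not be checked by its transcripts. Of marker genes, 4 of 5 for progenitors had a region within 5 kb of a start, as did 3 of 3 for astrocytes. The counts were 1 of 4 for microglia and 1 of 3 for neurons. Over all protein-coding genes the share was 18.1%, and the part of other cells in the results was not tested.

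Promoter sequences are shown for 4 of the genes, whose binding differs in strength and in place. RefSeq (GRCm38.p6) gave 9 windows, from 250 bases before to 50 bases after a start, for 6 of the 9 genes. Nfkb1, Relb and Nfkbiz are named only. Both strands were searched for the STAT motif TTCNNNGAA, its narrower form TTCCNGGAA, which is contained in it, the AP-1 motif TGANTCA and the kappaB consensus. Capitals mark matches of the STAT motif and the kappaB consensus. Each sequence is given 5′ to 3′ on the strand of its gene.
Nfkb2 (chr19:46304487-46304786, plus strand), where both replicates had their summit inside the window: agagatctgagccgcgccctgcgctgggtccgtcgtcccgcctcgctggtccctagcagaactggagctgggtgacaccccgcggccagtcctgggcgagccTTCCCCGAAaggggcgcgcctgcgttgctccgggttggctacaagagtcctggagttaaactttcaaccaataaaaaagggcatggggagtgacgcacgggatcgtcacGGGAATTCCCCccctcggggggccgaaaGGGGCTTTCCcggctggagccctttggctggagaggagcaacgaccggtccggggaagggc
Rela (chr19:5637291-5637590, plus strand), the most strongly bound of the genes: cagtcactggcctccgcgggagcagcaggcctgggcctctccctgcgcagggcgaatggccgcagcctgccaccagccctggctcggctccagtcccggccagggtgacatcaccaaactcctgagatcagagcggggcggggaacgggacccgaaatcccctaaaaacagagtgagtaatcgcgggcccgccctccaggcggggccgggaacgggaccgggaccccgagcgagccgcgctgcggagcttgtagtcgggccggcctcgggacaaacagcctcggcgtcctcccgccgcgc
Tnfaip3 (chr10:19015361-19015660, minus strand), the weakest region, with both summits inside the window: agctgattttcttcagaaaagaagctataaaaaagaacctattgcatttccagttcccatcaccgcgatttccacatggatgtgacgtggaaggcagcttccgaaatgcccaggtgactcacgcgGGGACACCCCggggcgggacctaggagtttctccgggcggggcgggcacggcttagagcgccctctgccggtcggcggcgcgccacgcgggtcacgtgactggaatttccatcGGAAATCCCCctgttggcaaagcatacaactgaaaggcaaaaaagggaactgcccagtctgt
Bcl3 (chr7:19822706-19823005, minus strand), where no peak of either replicate overlapped: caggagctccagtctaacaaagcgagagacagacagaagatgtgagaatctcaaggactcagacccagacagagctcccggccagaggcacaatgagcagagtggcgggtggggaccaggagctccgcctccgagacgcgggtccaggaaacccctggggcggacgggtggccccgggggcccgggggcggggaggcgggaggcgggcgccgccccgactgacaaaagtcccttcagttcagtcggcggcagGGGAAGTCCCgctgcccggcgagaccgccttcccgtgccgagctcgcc

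The Nfkb2 window held the match TTCCCCGAA at chr19:46304589-46304597. This match lay 18 bp from the summit of replicate 1 and 77 bp from that of replicate 2. The same window held 3 matches of the kappaB consensus, of which 2 overlap. No other window of the genes held TTCNNNGAA, and none held TTCCNGGAA. Rela had the strongest region, and its window, which lies wholly inside that region, held no match of any of these motifs. Both Rela summits lay past the end of this window, and the rest of the region was not searched. The Tnfaip3 window held 2 kappaB matches and 1 of TGANTCA, here left in lower case. Of the other Nfkb2 windows, which are not printed, one held 2 kappaB matches and 1 of TGANTCA, and the other held 1 of the same kappaB matches, where the windows overlap. Single kappaB matches stood in the windows of Bcl3 and Nfkbia, and the Rel window held 2 that overlap. Over all 32851 RefSeq promoter windows of this length, TTCNNNGAA was found in 8.30%, TTCCNGGAA in 1.15%, the kappaB consensus in 8.46% and TGANTCA in 7.81%. A match is a description of the letters only, and the sequence under most of the regions was not used here.

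Binding of pSTAT3 lay at or near most NF-kappaB genes. A region within 25 kb of a transcript was found for 8 of 9 (88.9%, 95% Wilson interval 56.5 to 98.0%), against 41.0% of 21887 protein-coding genes. Within 5 kb of a listed start were 7 of 9 (77.8%, Wilson interval 45.3 to 93.7%), against 18.1% of protein-coding genes, and the exceptions were Rel and Nfkbia. Within 1 kb of a start were 6 of 9 (66.7%, Wilson interval 35.4 to 87.9%), against 12.8%, since the nearest Nfkb1 region lay 1919 bp from a start. At least 2 regions were listed for 5 of 9, namely Nfkb1, Relb, Bcl3, Nfkbiz and Nfkbia, against 17.4%. The intervals cover counting error over genes only, and no test was made because the genes were chosen with results of these data known. Several of these starts belong to shorter transcripts inside the gene. When only the start of the longest listed transcript counted, 4 of 9 genes had a region within 5 kb, which were Rela, Nfkb2, Relb and Tnfaip3, against 15.2% of protein-coding genes. The same 4 genes had a region within 5 kb of either RefSeq end, against 19.3% of protein-coding genes.

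**Figure D1:**
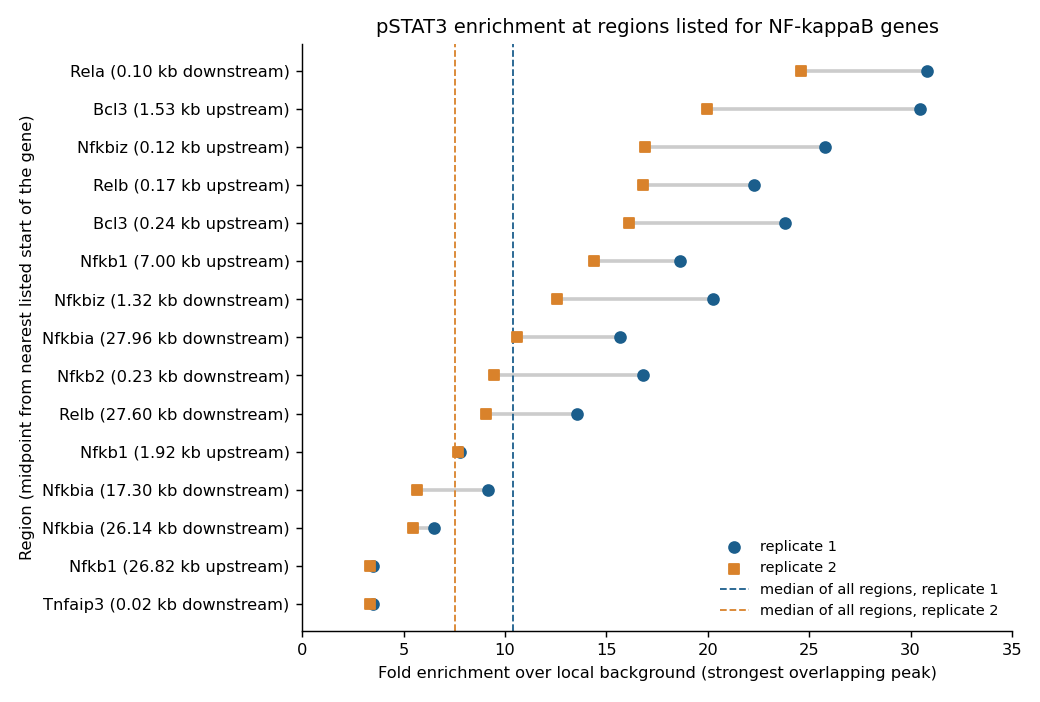
Fold enrichment (x axis, linear) of the 15 regions listed for NF-kappaB genes, ordered from the strongest at the top, with the distance of each midpoint from the nearest listed start of the gene. Circles are replicate 1 and squares replicate 2, and dashed lines are the medians over all 12925 regions, 10.4 and 7.51. Replicate 1 is higher in 15 of 15 regions, and both Nfkb1's weakest region and Tnfaip3 lie at 3.50 and 3.33.

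Strength was taken as the fold enrichment, which is the authors' value per peak and sets the pileup at the summit against the local background. Each region was given its strongest overlapping peak in each replicate. The lower of the replicates' folds had a median of 10.6 over the 15 regions and of 7.48 over all 12925. Replicate medians were 16.8-fold and 10.6-fold for the NF-kappaB regions, against 10.4-fold and 7.51-fold for all regions. Of the 15, 11 lay above the median of all regions, and 2 were among the top 10%, which begins at 17.9-fold. Replicate 1 was higher in 15 of 15 regions, by a ratio of 1.01 to 1.77 with a median of 1.48. Over all regions it was higher in 95.1%, with a median ratio of 1.33. Summits of the replicates lay a median of 23 bp apart in NF-kappaB regions and 20 bp apart in all regions. Within 1 kb of a start of any gene were 7 of the 15 regions (46.7%), against 23.9% of all regions. Of the 15, a further 5 (33.3%) lay inside a transcript, against 40.5%, and 3 (20.0%) outside transcripts, against 35.6%. These classes exclude each other, so a region within 1 kb of a start was not counted as inside a transcript even where it was. Per gene, the strongest lower fold had a median of 15.6 over the 8 NF-kappaB genes with a region and of 9.17 over the 8970 protein-coding genes with one. This value is a maximum, which can only rise with the number of regions. At least 2 regions were listed for 5 of these 8 genes and for 3803 of the 8970, and the part of this in the difference was not tested.

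Rela, which encodes the main transactivating subunit, carried the strongest region. It covered chr19:5637168-5637995 (GRCm38), and its midpoint lay 98 bp downstream of the listed start. The enrichment was 30.8-fold in replicate 1 and 24.6-fold in replicate 2, with pileups of 175 and 95 fragments. Its irreproducible discovery rate (IDR), which is low for regions that rank high in both replicates, was 3.73e-07. By lower fold the region ranked 545 of 12925, in the top 4.22%, and among the 8970 genes Rela ranked 665. Both summits lay beyond the printed promoter window, 239 and 222 bp downstream of the listed start. Regions of almost the same strength lay nearest to Aldoc (30.6-fold and 24.7-fold), a glycolytic enzyme of astrocytes, Hnrnpr (34.1-fold and 24.6-fold) and Kbtbd2 (32.4-fold and 24.5-fold). They lay 109 bp from the start of Aldoc, 218 bp from that of Hnrnpr and 11.1 kb from that of Kbtbd2. A further Rela peak, in replicate 1 only, lay 10893 bp downstream with 3.19-fold enrichment.

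Relb, whose product pairs with that of Nfkb2 in the noncanonical branch of the pathway, was bound just upstream of its start. The region at chr7:19629436-19629771 had its midpoint 165 bp upstream, and the summits of both replicates fell on the same base, 152 bp upstream. Its enrichment was 22.3-fold in replicate 1 and 16.8-fold in replicate 2 (IDR 6.64e-07), which ranked 1521. The other Relb region, chr7:19600597-19601067, lay 27602 bp downstream of the nearest Relb start and 5150 bp past the transcript. It stood inside Clasrp, a gene of RNA splicing, 3636 bp from its start, and had 13.5-fold and 9.06-fold enrichment. Which gene this region acts on, if any, was not tested.

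Nfkb2, which encodes a precursor processed in the noncanonical branch, had 1 region at chr19:46304145-46305779. It spans both listed starts, and the summits lay 126 and 67 bp upstream of the first. Enrichment was 16.8-fold in replicate 1, from 1 peak, and 9.47-fold in replicate 2, from the stronger of 2 separate peaks within the same stretch. The weaker of these had 4.86-fold enrichment. The ratio of 1.77 between replicates was the highest of the 15 regions, and the pileup was 95 in replicate 1 and 36 in replicate 2. With an IDR of 8.24e-05 it ranked 4403 by lower fold. The STAT motif match printed above lies in this region.

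Nfkb1, which encodes the precursor of the most widely used DNA-binding partner, was bound inside the gene and not at its outermost start. Its strongest region, chr3:135674477-135675112, lay 16752 bp downstream of the start of the longest transcript and 6995 bp upstream of an internal start. The enrichment was 18.6-fold in replicate 1 and 14.4-fold in replicate 2, with pileups of 129 and 68 (IDR 8.1e-07, rank 2100). A region of 7.77-fold and 7.68-fold lay 1919 bp upstream of another internal start, and with a ratio of 1.01 it had the closest replicates of the set. The last Nfkb1 region, chr3:135635192-135635409, had 3.50-fold and 3.33-fold enrichment and ranked 12776. Near the outermost start, replicate 1 had a peak of 3.50-fold and replicate 2 another of 3.76-fold, 1875 bp downstream and 1554 bp upstream, which did not overlap.

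Rel, which encodes a subunit best known from lymphocytes, had no region in the table. Both peak lists nevertheless held a peak at its RefSeq start, at chr11:23770384-23771514 in replicate 1 and chr11:23770500-23771277 in replicate 2. The folds were 4.78 and 4.46, the pileups 35 and 18, and the summits 60 and 73 bp downstream of the start. The mean -log10 p of this pair was 11.8, while the weakest region of the table apart from the group described below had 11.5. Over the genome, 4235 of 11099 overlapping pairs outside the table also lay above that weakest region, so Rel is 1 of many. Rel is therefore absent from the table but not from the peak lists. Rel also had a replicate 1 peak of 4.49-fold, 34945 bp downstream of the start.

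**Figure D2:**
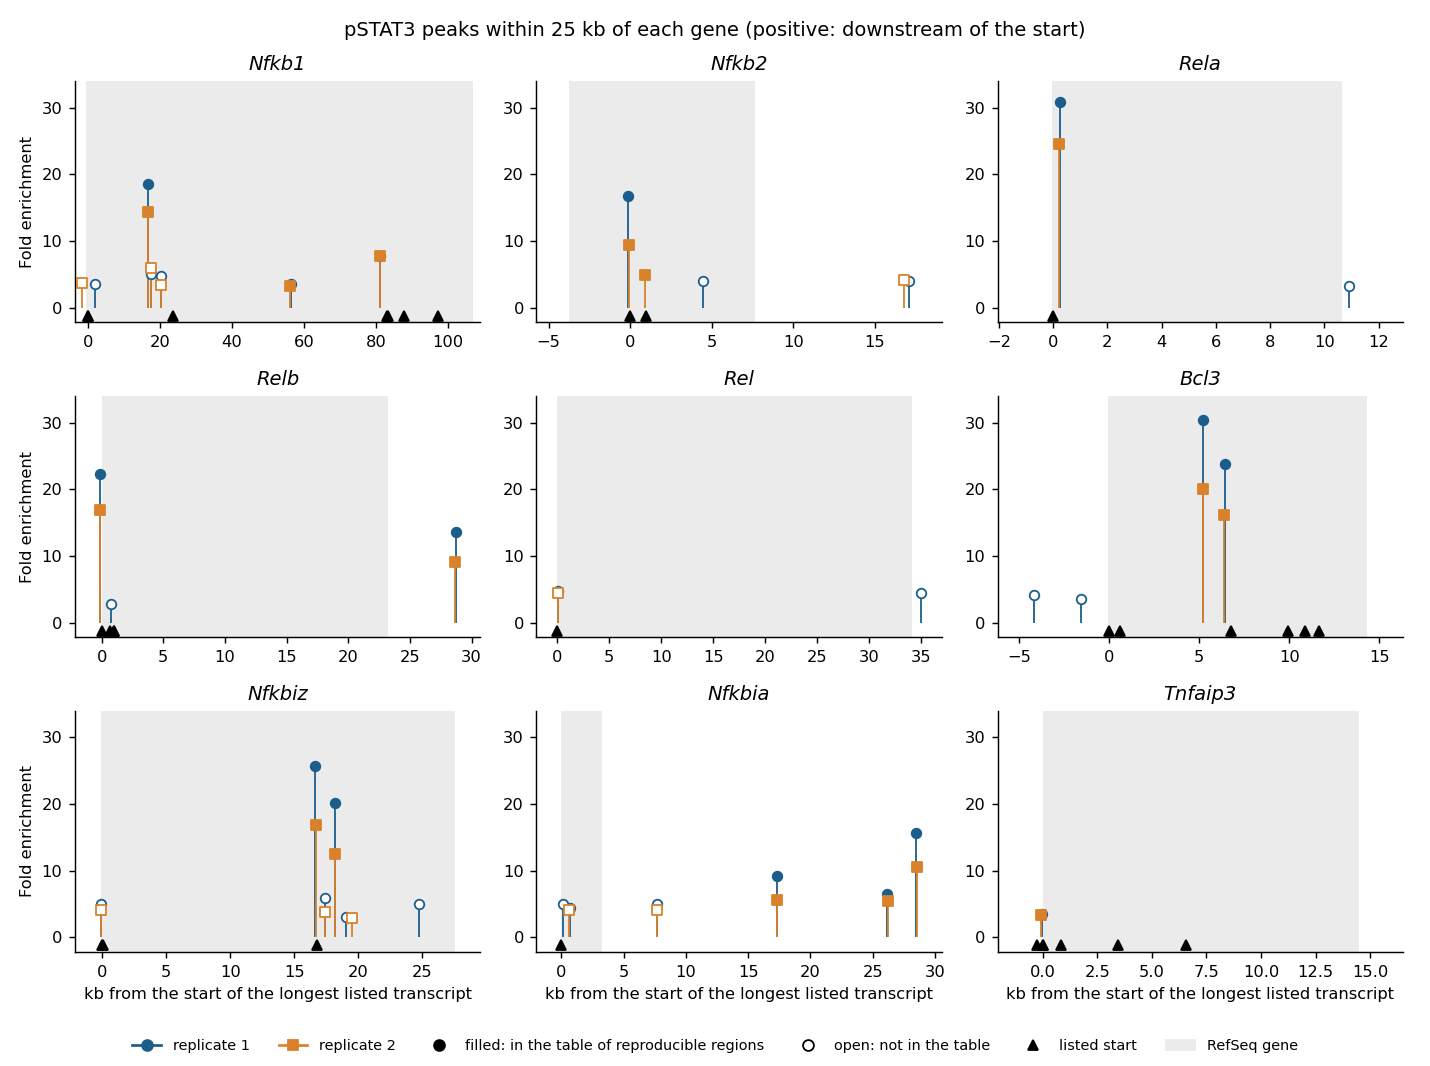
Peaks within 25 kb of each of the 9 genes, by summit distance in kb from the start of the longest listed transcript (x axis; for Rel, the RefSeq start) and fold enrichment (y axis). Circles are replicate 1 and squares replicate 2, filled where the peak lies in a region of the table and open where it does not, triangles are listed starts and the grey band is the RefSeq gene. Bcl3 and Nfkbiz carry their tall peaks inside the gene, Rela, Relb and Nfkb2 at the first start, and Nfkbia past its 3′ end.

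Bcl3, a nuclear cofactor of NF-kappaB dimers and a known STAT3 target gene, carried a pair of strong regions inside the gene. The first, chr7:19817181-19817875, had 30.4-fold enrichment in replicate 1 and 20.0-fold in replicate 2, with pileups of 173 and 77 (IDR 5.42e-07, rank 1008). It lay 1532 bp upstream of an internal Bcl3 start, 5242 bp downstream of the outermost listed one, and 975 bp downstream of the start of Gm16174 on the opposite strand. The other, chr7:19815492-19816973, had 23.8-fold and 16.1-fold enrichment and lay 236 bp upstream of the same internal Bcl3 start. At the outermost start, the promoter window printed above, no peak overlapped, and peaks of 3.50-fold and 4.20-fold lay 1575 and 4188 bp upstream in replicate 1 only. Next to the first region in rank stood those nearest to Copz1 (24.8-fold and 20.0-fold), Depdc1b (23.7-fold and 20.0-fold), Dhrs13 (22.0-fold and 20.0-fold) and the cyclin gene Ccnd3 (27.8-fold and 20.0-fold). Only that of Dhrs13 was near the gene's start, at 307 bp. The others lay 13.2 kb from the start of Copz1, 15.6 kb from that of Depdc1b and 40.8 kb from that of Ccnd3.

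Nfkbiz, which encodes the nuclear cofactor IkB-zeta, was likewise bound inside the gene. Its stronger region, chr16:55821823-55822695, lay 121 bp upstream of an internal start, 16640 bp into the gene. It had 25.8-fold enrichment in replicate 1 and 16.9-fold in replicate 2, with pileups of 151 and 65 (IDR 7.23e-07, rank 1494). The second, chr16:55820462-55821179, had 20.2-fold and 12.6-fold enrichment 1318 bp downstream of that start. By pileup it was as high, at 168 and 73 fragments, over a local background of 7.35 and 4.89. At the outermost starts, both replicates had a peak of lower strength, with 4.96-fold and 4.17-fold enrichment, that is not in the table.

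Nfkbia, which encodes the inhibitor IkB-alpha, had 3 regions, all past its 3′ end and outside transcripts. The strongest, chr12:55463942-55465430, lay 27961 bp downstream of the start and 23981 bp past the transcript. Its pileup of 194 fragments was the highest of the 15 regions in replicate 1, and 90 in replicate 2 was second to Rela. The local background there was also the highest of the set, 11.4 and 7.60 fragments, so the fold was 15.7 in replicate 1 and 10.6 in replicate 2. By pileup the region ranked 706 in replicate 1 and 1013 in replicate 2, and by lower fold 3676. The part of the raised background in the fold was not tested beyond these values. The other regions had 9.15-fold and 5.64-fold enrichment 17305 bp downstream, and 6.47-fold and 5.48-fold 26143 bp downstream. No other gene is listed for these regions, and their tie to Nfkbia rests on distance alone. At the Nfkbia start itself, replicate 1 had a peak of 5.07-fold with its summit 133 bp downstream, and replicate 2 had none overlapping it. Farther downstream, at 668 bp in replicate 1 and 615 bp in replicate 2, overlapping peaks of 4.37-fold and 4.10-fold are not in the table.

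**Figure D3:**
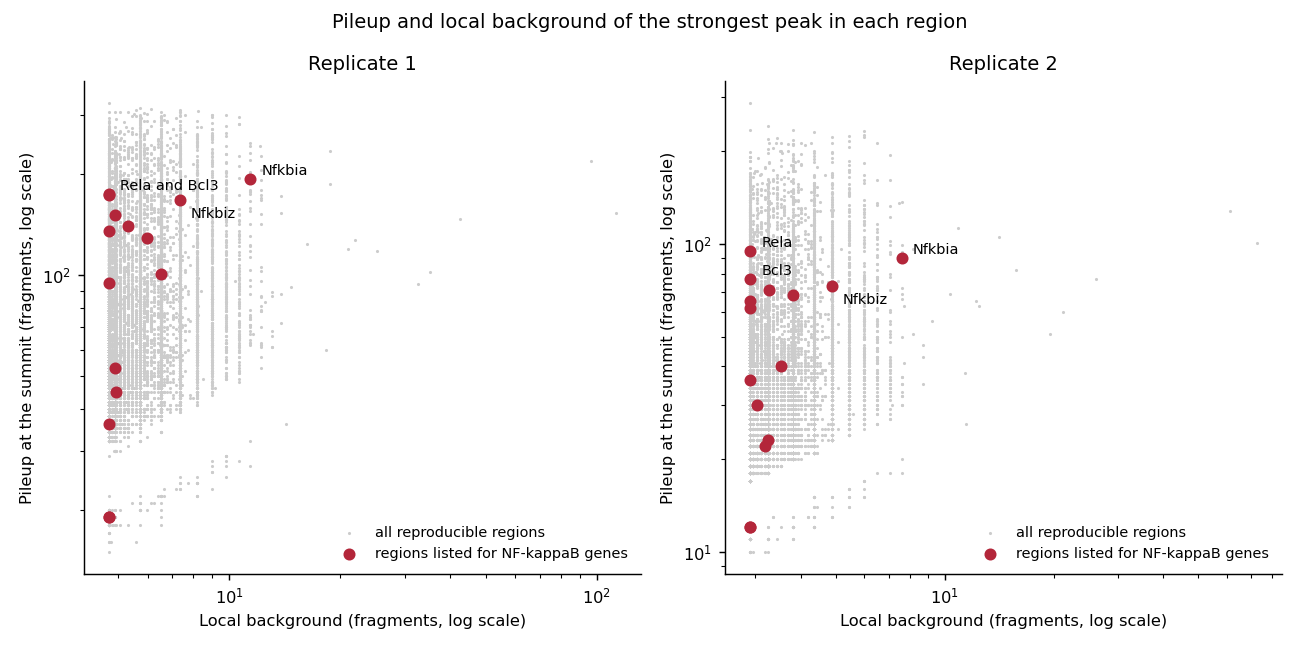
Pileup at the summit (y axis, fragments, log scale) against local background (x axis, fragments, log scale) of the strongest peak in each region, for replicate 1 on the left and replicate 2 on the right. Red points are the 15 regions of NF-kappaB genes and grey points all 12925 regions. The strongest Nfkbia region stands to the right of the other 14, at a background of 11.4 and 7.60, and Rela and Bcl3 are among the regions at the lowest background, 4.72 and 2.91.

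Tnfaip3, which encodes a deubiquitinase that switches off the pathway, had the weakest binding of the 8 genes. Its region, chr10:19015199-19015505, lay 24 bp downstream of a listed start. Enrichment was 3.50-fold in replicate 1 and 3.33-fold in replicate 2, from pileups of 19 and 12 over the lowest background (IDR 0.0456). The folds, pileups and background are exactly those of Nfkb1's weakest region, whose IDR was 0.0415. Both belong to a group of 145 regions whose mean -log10 p lay between 3.53 and 6.22, below a gap that ended at 11.5. The group makes up 2 of the 15 NF-kappaB regions (13.3%) and 1.12% of all regions. Without this group, an alternative chosen after seeing the data, there were 13 regions with a median lower fold of 12.6, and 7 of 9 genes had one within 25 kb, against 40.7% of protein-coding genes. Within 5 kb were 6, against 17.9%, and within 1 kb 5, against 12.6%.

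The peak lists held further binding at these genes beyond the table. Within 25 kb of the 9 genes lay 33 peaks in replicate 1 and 26 in replicate 2, of which 15 and 16 fell in regions of the table. A further 8 pairs of overlapping peaks, with lower folds of 3.42 to 5.07, were not in the table. They lay at Nfkb1, Nfkbiz and Nfkbia (2 pairs each) and at Nfkb2 and Rel (1 each). Their mean -log10 p was 7.98 to 13.2, above that of Tnfaip3's region (5.89) in 8 of 8 pairs. The same holds over the genome, where 10259 of 11099 such pairs (92.4%) had a mean -log10 p above the group of 145. Overlapping peaks of both replicates lay within 5 kb of either RefSeq end of 7 of 9 genes, all but Nfkb1 and Bcl3, against 32.8% of protein-coding genes. With peaks of replicate 1 alone the count was 9 of 9, against 49.8%, and with replicate 2 alone 8 of 9, against 34.8%. At the edge of the window used, the farthest region inside was that of Nfkbia at 23981 bp. Just outside, 26.7 kb past the 3′ end of Nfkb2, lay a region of 10.0-fold and 4.70-fold enrichment. On the IDR the last region inside was that of Tnfaip3 at 0.0456, and no IDR was available for peaks outside the table.

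**Figure D4:**
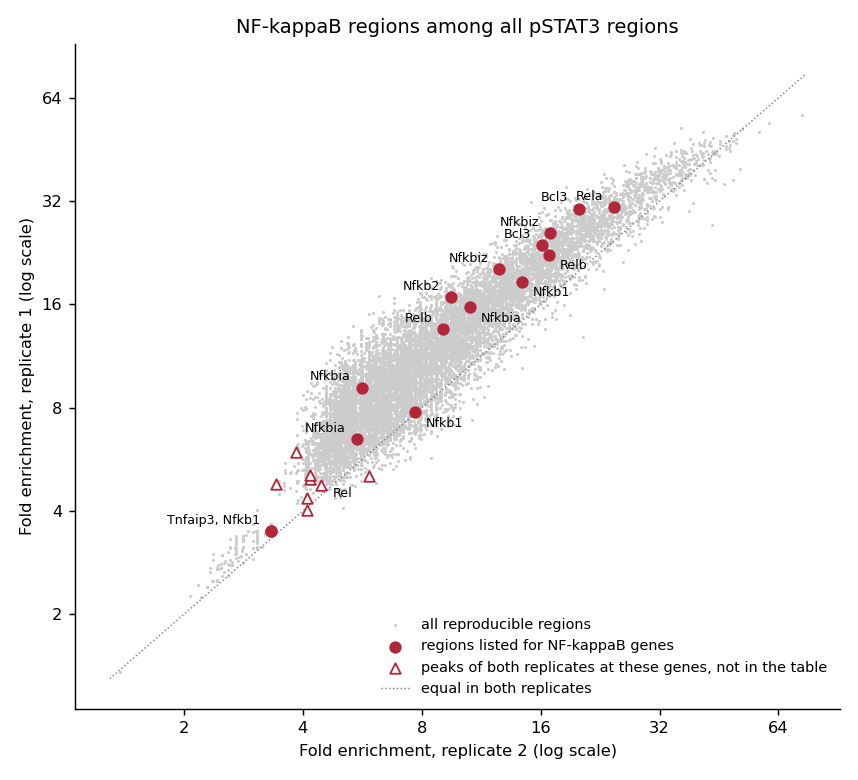
Fold enrichment in replicate 1 (y axis, log scale) against replicate 2 (x axis, log scale) for all 12925 regions (grey), the 15 regions of NF-kappaB genes (red circles) and the 8 overlapping pairs of peaks at these genes that are not in the table (open triangles). The dotted line marks equal values. Rela and Bcl3 lie high in the cloud, and the pairs outside the table, Rel's among them, lie above Tnfaip3 and Nfkb1's weakest region, which fall on one point at 3.50 and 3.33.

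Further genes of the pathway were taken from a list of 91, grouped by role. Of these, 32 (35.2%) had a region within 5 kb of a start, against 18.1% of protein-coding genes, and their strongest lower fold had a median of 10.8. Among receptors and adaptors, 7 of 24 (29.2%) had one. Ripk1, a kinase adaptor of the tumour necrosis factor receptor, was enriched 39.3-fold and 32.2-fold at a site 177 bp upstream. That receptor's own gene, Tnfrsf1a, had 30.1-fold and 25.0-fold enrichment 2408 bp upstream, in a region also listed for Plekhg6 and Scnn1a. The interleukin 1 receptor gene Il1r1 had 17.7-fold and 14.9-fold enrichment. Among kinases, 4 of 12 (33.3%) had one. Map3k8, a kinase of the MAP kinase cascade in inflammatory signalling, had 44.8-fold and 36.9-fold enrichment 165 bp upstream. Map3k14, which encodes the kinase that starts the noncanonical branch, had 33.7-fold and 26.1-fold enrichment 10 bp downstream, while Tab1 had 6.71-fold and 5.33-fold. Those of the IkB kinase complex and its relatives, Chuk, Ikbkb, Ikbkg, Ikbke and Tbk1, had no region within 25 kb, and neither had Map3k7, Tab2 and Tab3. Within that distance 4 of the 12 kinases (33.3%) had one, against 41.0% of protein-coding genes.

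Other inhibitors and modifiers had 11 of 25 (44.0%) with a region within 5 kb. The strongest were Tnip2 (18.7-fold and 13.4-fold), which encodes a binding partner of the Tnfaip3 product, and 2 genes of the linear ubiquitin ligase, Rnf31 (21.2-fold and 12.1-fold) and Sharpin (18.1-fold and 11.3-fold). Regions of pathway genes can be listed for neighbours too, as Rnf31's is for Irf9 and Sharpin's for Maf1. Ligands had 1 of 9 (11.1%), Il33 with 8.48-fold and 5.00-fold, and neither Tnf nor Il1b had a region within 25 kb. Within that distance 2 of the 9 ligands (22.2%) had one, against 41.0% of protein-coding genes. Known target genes had 9 of 21 (42.9%), led by the growth factor gene Csf1 (41.2-fold and 36.7-fold, 26 bp upstream), the stress gene Gadd45b (24.7-fold and 18.2-fold) and Ier3 (16.5-fold and 15.9-fold). The Ier3 region lay 1685 bp downstream of the Ier3 start but within 1 kb of another listed start. It is listed for Flot1, Mdc1 and Tubb5 too, and which gene it acts on, if any, was not tested. No role was tested against another, and nothing particular to a role is drawn from these shares.

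**Figure D5:**
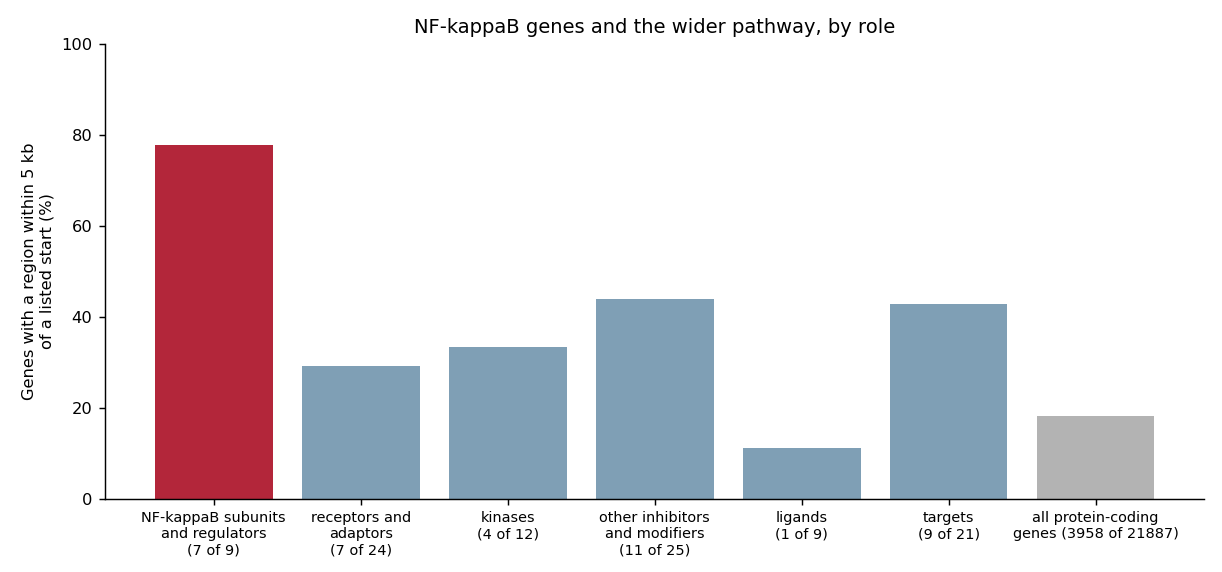
Percentage of genes with a region within 5 kb of a listed start (y axis, from 0) for the NF-kappaB subunits and regulators (7 of 9), for the 91 further pathway genes by role, and for all protein-coding genes at the right (3958 of 21887). The first bar stands at 77.8%, the roles between 11.1% for ligands and 44.0% for other inhibitors and modifiers, and all genes at 18.1%.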

How the data were processed

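The series measured pSTAT3 binding by ChIP-seq in 2 libraries, with 2 inputs whose values were not analysed here. The submitters' processing notes name CASAVA 1.8, Bowtie2, MACS2 and the build GRCm38.p3, with no options. In the deposited peak lists, one per library, the pileup signal counts the fragments stacked on the summit. The authors' fold enrichment is taken as the caller's ratio of pileup to local background, with 1 added to each. The -log10 p and -log10 q columns have damaged headers in the deposited lists and were recognised from their values. In the authors' region table, IDR values (none above 0.05) stand under an adjusted p-value heading, and its fold column holds, in 12924 of 12925 regions and within 0.001, the mean -log10 p of the replicates, averaged first over each replicate's peaks, so folds were taken from the lists. Its summit column is the midpoint.

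Computations used pandas 2.3.3, numpy 2.4.6 and scipy 1.17.1 in Python 3.11.15, with plots from matplotlib 3.10.9. A peak belonged to a region when they shared at least 1 bp. Local background was computed as the pileup plus 1, divided by the fold, minus 1. Positions are 1-based, distances run to the nearest listed start, and genes were compared with protein-coding RefSeq genes on chromosomes 1 to 19, X and Y. The steps were tested on simulated data. The 9 genes and the pathway lists were chosen with earlier results of these data known. Named pathway genes are the 3 with the highest lower fold per role, beside the genes next in rank to the strongest 2 regions, of which 1 is not reported here. The others were chosen after their values were seen. Exon and UTR classes need an annotation that was not used here. Read numbers are not stated in the labels, so pileup and background are the measures of depth.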

Additional observations from a re-analysis of the deposited data

Results flagged for a closer look

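Peaks of both replicates overlapped at 8 places near NF-kappaB genes that are not in the authors' table of reproducible regions, and each is listed here because its signal stands outside the regions compared above. At the start of Rel the lower fold enrichment was 4.46, and it is the sole overlapping pair within 25 kb of that gene. At Nfkb1 the pairs lay 3335 and 6190 bp upstream of an internal start, with lower folds of 3.42 and 5.07. At Nfkbiz the lower fold was 3.84 for the pair 625 bp downstream of the internal start and 4.17 for the pair 116 bp upstream of an outermost start. At Nfkbia the pair 7699 bp downstream of the start had a lower fold of 4.17 and the pair 668 bp downstream one of 4.10. The Nfkb2 pair, 16114 bp downstream of a start, had a lower fold of 4.02. All 8 values lie above the 3.33 of the regions of Tnfaip3 and of Nfkb1's weakest region, which are in the table. No input values were at hand to set beside them.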

How the results depend on the processing

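Of 94 alternative values, 80 stayed within the limits set for an unchanged result and 14 moved. Part of these outcomes was fixed by construction. The lower fold was that of replicate 2 for every gene, so leaving out replicate 1 could not change it and leaving out replicate 2 had to raise it. The limits were also wide, as a fall from 6 to 4 genes within 1 kb counted as unchanged. The share unchanged is therefore no measure of robustness. Counting only the longest transcript's start gave 4 genes within 5 kb instead of 7. Leaving out 1 replicate at a time gave 26 to 33 peaks in place of 15 regions, with a median fold over those peaks of 5.56 in replicate 2 and 5.07 in replicate 1. Over the 15 regions themselves, the median fold of a single replicate was 10.6 to 16.8. The strongest fold per gene then spanned 24.6 to 30.8 for Rela, 16.8 to 22.3 for Relb, 14.4 to 18.6 for Nfkb1, 9.47 to 16.8 for Nfkb2, 20.0 to 30.4 for Bcl3, 16.9 to 25.8 for Nfkbiz, 10.6 to 15.7 for Nfkbia and 3.33 to 3.50 for Tnfaip3. Adding overlapping peaks of both lists, an alternative chosen after seeing the data, gave 23 regions. Among all 49943 reference genes, 9.64% had a region within 5 kb, against 18.1% of protein-coding genes. The cause of these shifts was not tested, apart from the settings' own construction. Tnfaip3 had no region at an IDR of 0.01 or below or at a -log10 q of at least 10. No paired analysis was possible because no input values were analysed and the results come from no test. At the weak end, Tnfaip3's region rests on 12 stacked fragments in replicate 2, where the lowest background was 2.91 fragments. The part of depth in such weak regions was not tested.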

Other observations

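The microRNA gene Mir146b, whose family is known for damping NF-kappaB signalling through adaptor transcripts, lies on chromosome 19 beyond Nfkb2, and it was looked up after values were seen. A reproducible region at chr19:46339134-46340139 lay 3.13 kb upstream of Mir146b and 26.7 kb past the 3′ end of Nfkb2. It was enriched 10.0-fold in replicate 1 and 4.70-fold in replicate 2, with pileups of 58 and 19 and an IDR of 0.0339. The start nearest to it is that of Cuedc2, 976 bp away, so its tie to either neighbour rests on distance alone.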
